A study of Mus musculus with 12 samples.

Results

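The casein genes of the mouse are Csn1s1, Csn2, Csn1s2a, Csn1s2b and Csn3, 5 of the 27179 genes counted, and they were found in the deposited gene table by their Entrez identifiers. Their RNA was counted in luminal and basal cells sorted by flow cytometry from the mammary glands of wild-type FVB/N females that received no treatment. The females were virgin, at day 18.5 of pregnancy or at day 2 of lactation. The 6 groups were therefore luminal virgin, luminal pregnant, luminal lactating, basal virgin, basal pregnant and basal lactating, each with 2 libraries, and the labels give 2 mice per stage. The labels do not give the age of the mice. The 12 libraries held 20015386 to 24723827 counted reads.

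Caseins are the main proteins of milk. Luminal cells that form the alveoli make them, fold them into micelles that carry calcium phosphate, and secrete them into the lumen, while the basal layer outside is largely contractile myoepithelium. Csn1s1 (alpha-S1), Csn2 (beta), Csn1s2a and Csn1s2b (both alpha-S2-like) encode the calcium-sensitive caseins, which descend from a common ancestor. Csn3 encodes kappa-casein, a protein of another origin that coats the micelle and keeps it in suspension. Prolactin, glucocorticoid and the transcription factors STAT5 and ELF5 are known to drive casein transcription.

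All 5 genes lie on chromosome 5 and none shares exon sequence with another gene of the GENCODE vM21 annotation. In GRCm38.p6 they occupy chr5:87666208-87682578 (Csn1s1, Entrez 12990), chr5:87692619-87699429 (Csn2, 12991), chr5:87774450-87788798 (Csn1s2a, 12993), chr5:87808121-87824421 (Csn1s2b, 12992) and chr5:87925579-87932550 (Csn3, 12994). The cluster spans 266.3 kb, and Csn2 is read from the minus strand. No stretch of 20 bases is shared between any pair of their protein-coding transcripts. The relation between the members is visible in the first 45 coding bases, which start the secretion signal. They are shown to tell the calcium-sensitive caseins from kappa-casein, from GENCODE vM21 transcripts on GRCm38, each within 1 exon, with capitals at the 28 positions where all 4 calcium-sensitive genes have the same base.
Csn1s1: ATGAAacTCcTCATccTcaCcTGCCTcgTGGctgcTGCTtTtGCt
Csn2: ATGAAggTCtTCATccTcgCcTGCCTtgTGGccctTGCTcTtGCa
Csn1s2a: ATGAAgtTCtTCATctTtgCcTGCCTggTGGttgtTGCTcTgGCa
Csn1s2b: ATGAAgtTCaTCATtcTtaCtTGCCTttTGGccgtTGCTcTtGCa
Csn3: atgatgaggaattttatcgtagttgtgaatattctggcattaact
Pairs of calcium-sensitive caseins were identical at 33 to 37 of the 45 positions, and each of them was identical to Csn3 at 15 to 17. In the order above, these stretches lie at chr5:87667247-87667291, chr5:87698034-87698078 (minus strand), chr5:87775787-87775831, chr5:87809909-87809953 and chr5:87927577-87927621.

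The caseins held a minor part of the luminal reads in virgin mice and their largest part in lactation. They took 0.550% and 0.687% of all counted reads in the luminal virgin libraries, 14.5% and 16.1% in the luminal pregnant ones and 34.5% and 33.9% in the luminal lactating ones. The basal virgin libraries gave 0.00871% and 0.0131%, the basal pregnant ones 0.546% and 0.342%, and the basal lactating ones 0.381% and 0.371%. The shares of all luminal stages stood apart, whereas the basal lactating shares lay between those of the pregnant libraries. The 95% exact binomial interval of the lowest share was 0.00833% to 0.00909%, and that of the highest 34.46% to 34.5%; the intervals cover counting error only, since reads copied by PCR are not independent molecules. Csn1s2a, Csn2 and Csn1s1 were, in this order, the 3 genes with the most reads in each luminal pregnant and luminal lactating library. Csn3 ranked 7 in these 4 libraries.

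**Figure D1:**
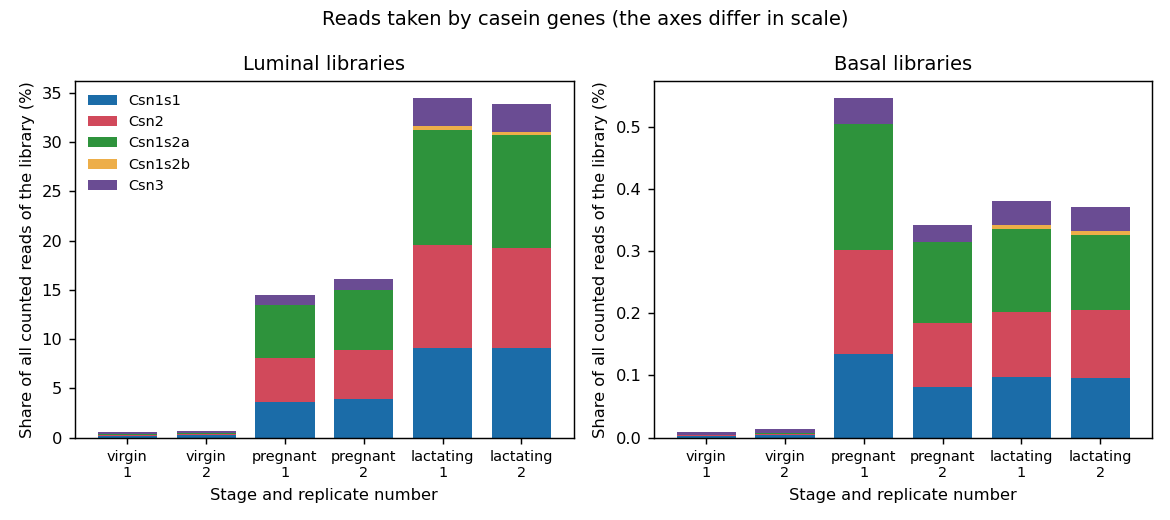
Share of all counted reads of a library (%, bars from 0) that fell on each casein gene, by stage and replicate number, with luminal libraries on the left and basal libraries on the right, on axes of different scale. The stacked luminal bars reach 34.5% and 33.9% in lactation, and the highest basal bar, a pregnant library, reaches 0.546%.

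With so many reads on few genes, the level of a gene depends on how libraries are scaled. Levels below are CPM, counts divided by library size, scaled by the TMM method, which aligns the bulk of the genes. On this scale the caseins of the luminal lactating libraries added up to 651500 and 633500 CPM, which are levels and not shares of reads. Scaling by library size alone lowered the luminal log2 changes by about the shift of the median gene, which was -0.50 for pregnant minus virgin and -0.85 for lactating minus pregnant. It also moved the balance of calls over all genes. Of the genes called in luminal cells, 12.6% were higher for pregnant minus virgin by library size alone (47.6% by TMM), 9.56% for lactating minus pregnant (49% by TMM) and 6.93% for lactating minus virgin (44.4% by TMM). Differences were tested with the quasi-likelihood F-test of edgeR and Benjamini-Hochberg adjusted over 15969 genes, all 5 caseins among them, and called at an adjusted p below 0.05. The p-values rest on a spread pooled over the 6 groups of 2 sorted samples each, and not on that of the compared groups alone. The main fit treated luminal and basal samples of a stage as independent, though the labels give 2 mice per stage. Changes are log2 values with their standard error (SE).

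In luminal cells all 5 caseins were called higher in pregnant than in virgin mice, where 21.8% of all genes were called higher. All 5 were called higher again in lactating than in pregnant mice, against 23.7% of all genes, and in lactating than in virgin mice, against 26.7%. The size and the timing of the changes differed between members. Csn1s2a, Csn2 and Csn1s1 gained most of their log2 change by late pregnancy, Csn3 about equal parts before and after, and Csn1s2b most of it between late pregnancy and day 2 of lactation.

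Csn1s1, the alpha-S1 casein, had 1406 and 1826 CPM in luminal virgin, 35900 and 42980 CPM in luminal pregnant and 172800 and 170800 CPM in luminal lactating libraries. No 2 stages overlapped. The change was 4.61 (SE 0.32, edgeR adjusted p = 2.92e-07) for pregnant minus virgin. It was 2.12 (SE 0.29, edgeR adjusted p = 6.89e-05) for lactating minus pregnant, or 1.27 (SE 0.26) when scaled by library size alone. The pregnant level was 23.0% of the lactating level.

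Csn2, beta-casein, stood at 542.1 and 864.1 CPM in luminal virgin, 44800 and 53660 CPM in luminal pregnant and 196900 and 189500 CPM in luminal lactating libraries. The stages again did not overlap. Pregnant minus virgin gave 6.13 (SE 0.40, edgeR adjusted p = 1.76e-07), a fold of 70.0. Lactating minus pregnant gave 1.97 (SE 0.33, edgeR adjusted p = 0.000371), or 1.12 (SE 0.30) by library size alone.

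Csn1s2a, an alpha-S2-like casein, had the largest change of the family in pregnancy. Its levels were 441.8 and 517.7 CPM in luminal virgin, 53200 and 65420 CPM in luminal pregnant and 220700 and 213400 CPM in luminal lactating libraries. It had the fewest luminal virgin reads of the 4 abundant caseins and the most reads of any gene at both later stages. The change in pregnancy was 6.95 (SE 0.33, edgeR adjusted p = 1.68e-08), a fold of 123.6. In lactation it rose by a further 1.87 (SE 0.26, edgeR adjusted p = 8.71e-05), or 1.02 (SE 0.23) by library size alone.

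Csn1s2b, the other alpha-S2-like casein, followed a separate course. It had 3.16 and 2.09 CPM in luminal virgin and 13.9 and 22.9 CPM in luminal pregnant libraries, against 6952 and 6854 CPM in luminal lactating ones. The luminal pregnant libraries held 311 and 465 of its reads and ranked it 7501 and 5982 among all genes; the luminal lactating libraries held 90958 and 90464 and ranked it 19. The change was 2.81 (SE 0.25, edgeR adjusted p = 2.11e-06) for pregnant minus virgin and 8.55 (SE 0.28, edgeR adjusted p = 2.28e-09) for lactating minus pregnant, or 7.71 (SE 0.23) by library size alone for the second step. Its pregnant level was 0.267% of its lactating level, whereas the other 4 members stood between 20.8% and 27.3%.

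Csn3, kappa-casein, had the smallest change of the 5 between virgin and lactating luminal cells. Luminal virgin libraries had 1632 and 1825 CPM, luminal pregnant libraries 10120 and 12160 CPM and luminal lactating libraries 54150 and 53010 CPM. It was the highest of the 5 in reads in 1 luminal virgin library and second by a small margin in the other. Pregnant minus virgin gave 2.69 (SE 0.22, edgeR adjusted p = 8.49e-07) and lactating minus pregnant 2.27 (SE 0.21, edgeR adjusted p = 3.45e-06), or 1.42 (SE 0.19) for the second step by library size alone. From virgin to lactation the 5 changes were 4.95 (SE 0.24) for Csn3, 6.73 (SE 0.36) for Csn1s1, 8.10 (SE 0.44) for Csn2, 8.82 (SE 0.36) for Csn1s2a and 11.36 (SE 0.32) for Csn1s2b. By library size alone they were 3.59, 5.37, 6.74, 7.46 and 10.003 in the same order, all called.

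**Figure D2:**
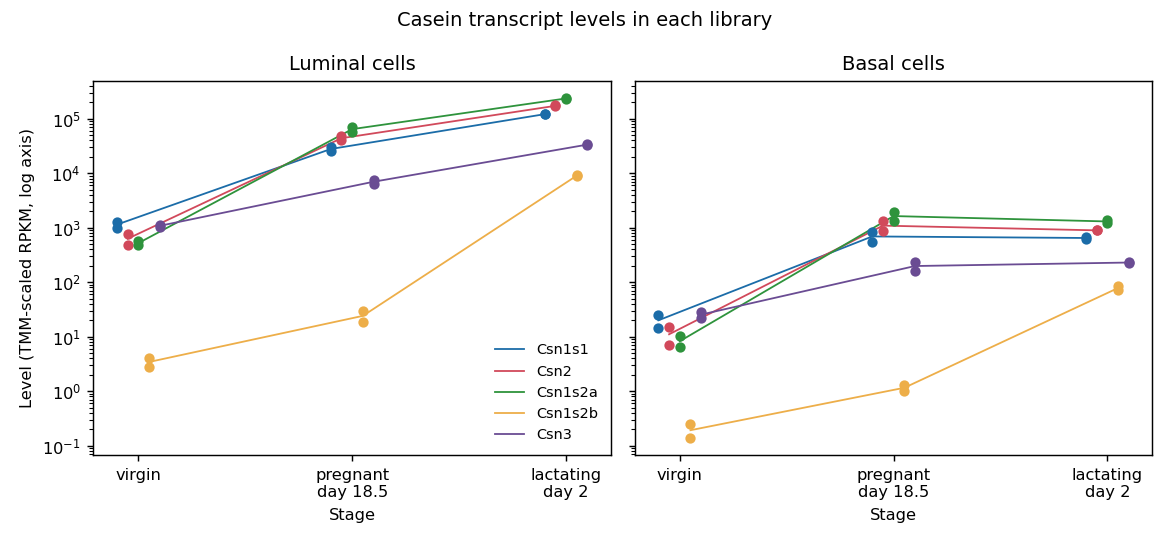
Level of each casein (TMM-scaled RPKM, which divides reads by gene length and library size, on a log axis) at each stage in luminal cells (left) and basal cells (right). Each point is a library, shifted sideways by gene, and lines join the means of 2 libraries. Csn1s2b stays far below the other members until lactation in both cell types.

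Per kb of gene, by the lengths deposited with the counts, the make-up of the casein RNA changed between the stages. Comparisons between genes depend on these lengths. For Csn3 (1597 bases) and Csn2 (1120 bases) they differ from the GENCODE vM21 transcripts used above (991 and 1329 bases). The order of members with near shares, as in virgin libraries, can therefore depend on the lengths. Without division by length, 23 of 30 shares moved by at least the SD of their 2 libraries. Csn1s1 and Csn3 led in virgin luminal cells, with 33.8% ± 0.67 and 32.3% ± 2.8 of the casein reads per kb (SD, n = 2 each), ahead of Csn2 with 18.4% ± 3.0 and Csn1s2a with 15.5% ± 0.83. In luminal pregnant libraries Csn1s2a led with 44.96% ± 0.46, followed by Csn2 with 30.7% ± 0.26, Csn1s1 with 19.5% ± 0.17 and Csn3 with 4.87% ± 0.030. Luminal lactating libraries kept this order, with 41.2% ± 0.13, 30.1% ± 0.19, 21.2% ± 0.26 and 5.86% ± 0.033. Csn1s2b made up 0.105% ± 0.046, 0.0166% ± 0.0036 and 1.58% ± 0.017 of the casein reads per kb in virgin, pregnant and lactating luminal libraries. Its share was thus lowest in late pregnancy.

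The basal libraries held a similar mixture at a far lower level. In basal virgin libraries Csn3 led with 40.1% ± 5.7 of the casein reads per kb and Csn1s1 followed with 30.4% ± 2.1. Csn1s2a led in basal pregnant libraries with 45.3% ± 0.59 and in basal lactating libraries with 41.3% ± 1.8. Csn1s2b made up 0.0341% ± 0.015 in basal pregnant and 2.48% ± 0.094 in basal lactating libraries, which held 1427 and 1216 of its reads. The basal order of the members was that of the luminal libraries at both later stages.

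**Figure D3:**
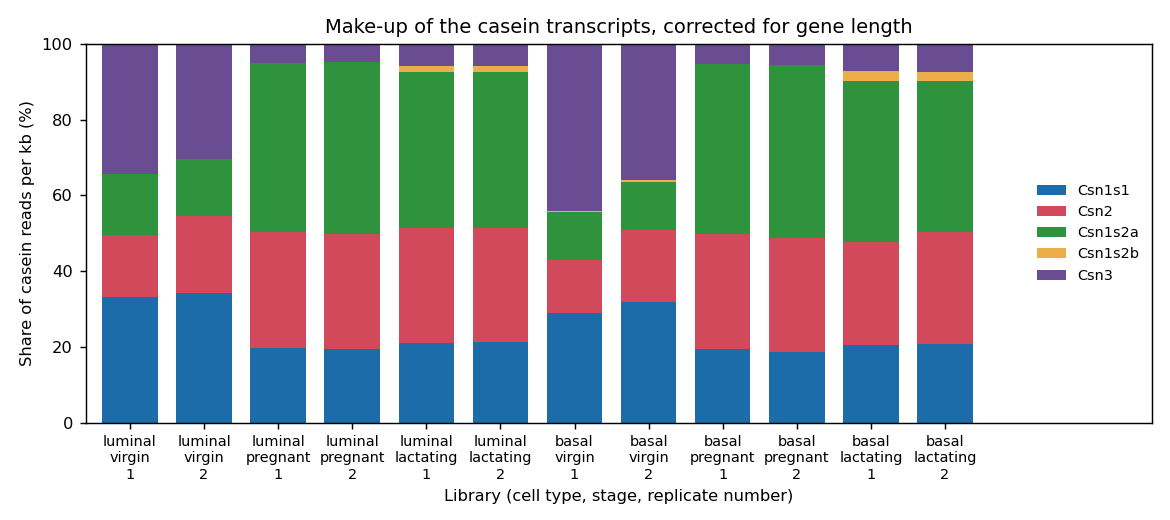
Share of each casein in the casein reads per kb of gene (%, stacked to 100) in each of the 12 libraries, luminal libraries first. Csn3 and Csn1s1 take the largest parts in virgin libraries of both cell types, and Csn1s2a and Csn2 in all pregnant and lactating libraries.

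In basal cells all 5 caseins were called higher in pregnant than in virgin mice, against 15.6% of all genes. Csn1s1 had 20.8 and 35.8 CPM in basal virgin, 1199 and 759.2 CPM in basal pregnant and 948.1 and 886 CPM in basal lactating libraries. Csn1s2a had 5.88 and 9.31 CPM, 1801 and 1210 CPM, and 1283 and 1113 CPM at the same stages. Both lactating values of Csn1s1 lay between its pregnant values, whereas 1 of those of Csn1s2a lay below. Pregnant minus virgin gave 5.12 (SE 0.33) for Csn1s1, 6.63 (SE 0.42) for Csn2, 7.63 (SE 0.35) for Csn1s2a and 2.96 (SE 0.22) for Csn3, with edgeR adjusted p-values from 8.1e-08 to 2.7e-06.

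Csn2 and Csn3 also had their lowest basal levels in virgin mice. Csn2 had 7.93 and 16.8 CPM in virgin, 1479 and 966.7 CPM in pregnant and 1003 and 999.7 CPM in lactating basal libraries. Csn3 had 35.7 and 45.6 CPM, 375.4 and 257.1 CPM, and 377.1 and 356.1 CPM at these stages. Replicate 1 of the basal pregnant libraries was above replicate 2 for Csn1s1, Csn2, Csn1s2a and Csn3, while the opposite held for these genes in luminal pregnant libraries.

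Csn1s2b was the only casein called between late pregnancy and lactation in basal cells, 1 of 5 where 15.7% of all genes were called higher. It had 3 and 5 reads in the basal virgin, 21 and 24 in the basal pregnant and 1427 and 1216 in the basal lactating libraries. The last stood far above the rest, at 64.0 and 55.9 CPM against 0.775 and 0.989 CPM in basal pregnant libraries. Lactating minus pregnant gave 6.09 (SE 0.30, edgeR adjusted p = 8.76e-07). The change in pregnancy, 2.55 (SE 0.59, edgeR adjusted p = 0.00643), rests on few reads and was no longer called without basal virgin replicate 1, at 2.18 with an edgeR adjusted p of 0.0605.

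The other 4 caseins were not called between the basal lactating and basal pregnant libraries, where 33.1% of all genes were called in either direction. Lactating minus pregnant was -0.09 (SE 0.28) for Csn1s1, -0.29 (SE 0.32) for Csn2, -0.33 (SE 0.26) for Csn1s2a and 0.21 (SE 0.20) for Csn3, with edgeR adjusted p-values from 0.346 to 0.825. The 95% intervals, from the t distribution with the 12.42 degrees of freedom of the edgeR test, reached from -0.70 to 0.51, -0.99 to 0.41, -0.88 to 0.23 and -0.23 to 0.66, and changes within them are compatible with these data. The sign of 3 of them turned when 1 basal pregnant library was left out. Against virgin mice all 5 were called higher in lactation, where 23.7% of all genes were, with changes from 3.17 (SE 0.22) for Csn3 to 8.64 (SE 0.37) for Csn1s2b.

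Every casein was higher in luminal than in basal cells at each stage. All 5 were called higher in virgin mice, against 31.2% of all genes, in pregnant mice, against 33.9%, and in lactating mice, against 35.4%. Luminal minus basal lay between 5.41 (SE 0.25, Csn3) and 5.98 (SE 0.32, Csn1s2a) in virgin mice for the 4 abundant members and was 4.12 (SE 0.48) for Csn1s2b. In pregnant mice the 4 lay between 5.14 (SE 0.24) and 5.33 (SE 0.34) and Csn1s2b at 4.38 (SE 0.30). In lactating mice the family spread from 6.85 (SE 0.26) for Csn1s2b to 7.59 (SE 0.43) for Csn2, or from 5.85 to 6.60 by library size alone. The largest edgeR adjusted p over these 15 values was 8.75e-06. Luminal libraries were sequenced in lane 1 and basal libraries in lane 2, so cell type and lane cannot be told apart.

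The step into lactation differed between the cell types for all 5 members, while by TMM no difference was called for the step into pregnancy. For the change from pregnancy to lactation, luminal minus basal was 2.22 (SE 0.40) for Csn1s1, 2.26 (SE 0.46) for Csn2, 2.20 (SE 0.37) for Csn1s2a, 2.47 (SE 0.42) for Csn1s2b and 2.05 (SE 0.29) for Csn3. All 5 were called higher, against 18.3% of all genes, with edgeR adjusted p-values from 0.000175 to 0.00219, and all 5 were called by library size alone, at 1.26 to 1.67. For the change from virgin to pregnant, luminal minus basal was -0.51 (SE 0.40), -0.50 (SE 0.47), -0.68 (SE 0.37), 0.26 (SE 0.89) and -0.27 (SE 0.29) in the same order of genes. EdgeR called 0 of these 5, against 30.7% of all genes in either direction; 0 had an unadjusted p below 0.05 and DESeq2 also called 0. With library size alone edgeR called 1 of the 5, Csn1s2a, lower (-1.05, SE 0.33, adjusted p = 0.0249), and the value of Csn1s2b was -0.11. Over the whole course from virgin to lactation, luminal minus basal was 1.52 (SE 0.38) to 2.72 (SE 0.86) and all 5 were called higher, against 23.1% of all genes. That of Csn1s2b was not called without basal virgin replicate 2 (2.28, edgeR adjusted p = 0.205). By library size alone 1 of these 5 was called, Csn3 at 0.63 (SE 0.27, edgeR adjusted p = 0.0482).

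**Figure D4:**
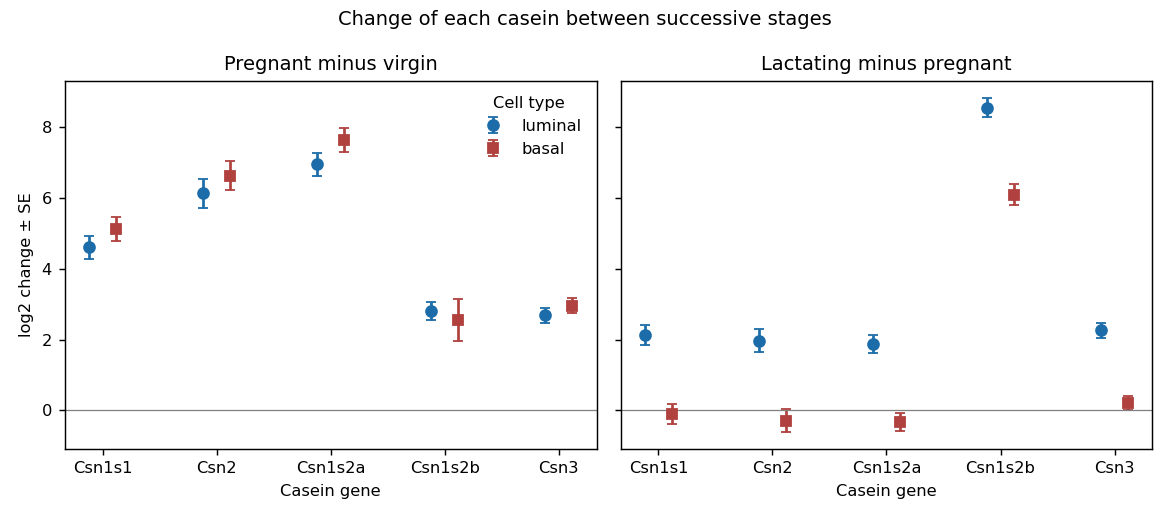
log2 change of each casein from virgin to pregnant (left) and from pregnant to lactating (right), in luminal cells (circles) and basal cells (squares), with the SE of the edgeR fit. In the right panel 4 basal points lie within 0.33 of 0 while all luminal points lie at 1.87 or above.

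Set against the luminal level of the same stage, the mean basal level differed little between the 4 abundant caseins. These percentages are basal over luminal and so run opposite to the differences above. Basal libraries had 1.58% to 2.35% of the luminal level in virgin, 2.48% to 2.84% in pregnant and 0.518% to 0.684% in lactating mice for Csn1s1, Csn2, Csn1s2a and Csn3. When basal libraries were divided by luminal libraries of the same number, the pregnant values were 3.30% to 3.71% for replicate 1 and 1.77% to 2.11% for replicate 2. No label says that a number marks a mouse, and the size of this gap depends on that pairing. The values of replicate 2 fell within the virgin range. Csn1s2b had 4.79% in pregnant and 0.868% in lactating mice. Scaled by library size alone, the lactating values of all 5 were 1.03% to 1.73%. For Wap, whey acidic protein, the basal level was 1.71%, 2.54% and 0.634% of the luminal level in virgin, pregnant and lactating mice. The median over the other milk proteins with at least 10 CPM in luminal cells was 4.51% (13 genes), 3.10% (15 genes) and 0.634% (15 genes). In lactating mice Wap and this median were both at 1.26% by library size alone.

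The luminal markers chosen for comparison had higher median percentages, with a wide spread. The basal level of Krt8, Krt18, Krt19, Epcam, Cd24a and Cldn3 had a median of 8.09%, 12.2% and 38.2% of the luminal level in virgin, pregnant and lactating mice, and none of the 6 was at 0 in a group. The single markers lay between 4.32% and 63.8%, 3.57% and 32.1%, and 3.40% and 95.01% at these stages, so that in pregnant mice Cldn3 (3.57%) and Krt18 (4.75%) were below Csn1s2b. The lactating median was 75.9% by library size alone. Their summed level was 9958 to 10620 CPM in luminal virgin, 8365 to 9858 CPM in luminal pregnant and 3573 to 4324 CPM in luminal lactating libraries. In basal libraries it was 1410 to 1517 CPM, 1517 to 1570 CPM and 1835 to 2248 CPM at the same stages. In the basal pregnant libraries the caseins summed to 4855 and 3194 CPM in replicates 1 and 2, while these markers summed to 1517 and 1570 CPM. The part of luminal cells or free luminal RNA in the basal casein reads was not tested. In such sorted populations fewer cells of a type and less RNA per cell cannot be told apart.

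**Figure D5:**
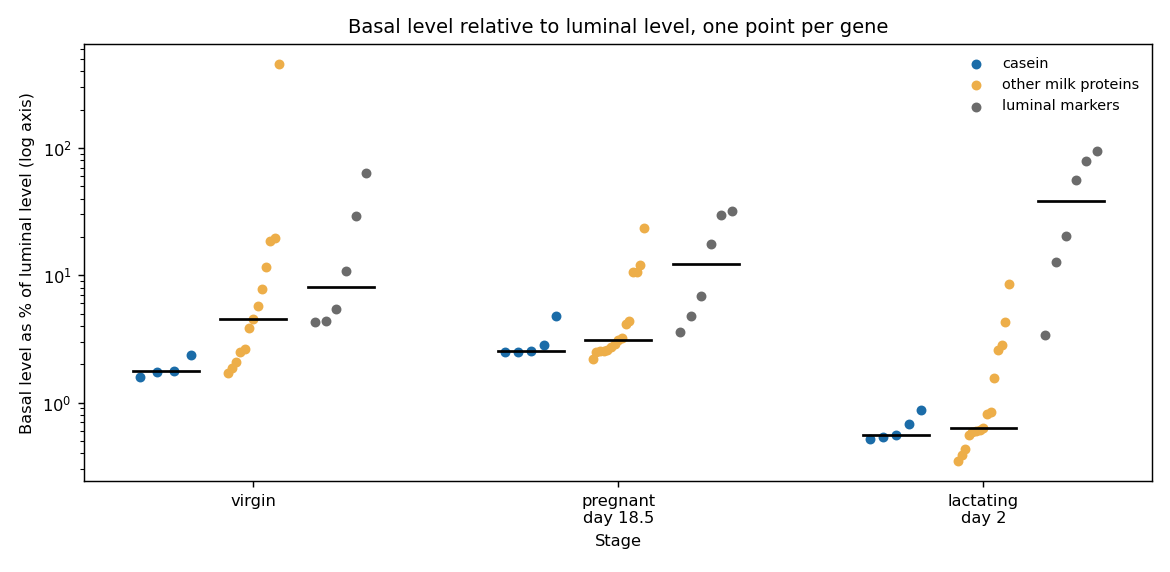
Basal level as a percentage of the luminal level (log axis) at each stage, 1 point per gene with at least 10 CPM in luminal cells, for caseins, other milk proteins and luminal markers; black bars are medians. In lactation the casein points lie at 0.518% to 0.868%, the other milk proteins have a median of 0.634% and the luminal markers one of 38.2%.

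Markers of other cells were examined in all groups. The 7 basal markers (Krt5, Krt14, Acta2, Myh11, Trp63, Oxtr and Mylk) summed to 55.3 and 81.3 CPM in luminal virgin, 326.1 and 391.4 CPM in luminal pregnant and 89.3 and 101.3 CPM in luminal lactating libraries, and to 13930 to 46940 CPM in basal libraries. In luminal pregnant against luminal virgin libraries 6 of the 7 were called higher and 0 lower, against 21.8% and 24.1% of all genes. The caseins also rose in this step, and the part of the basal markers in it was not tested. The 4 hormone-sensing luminal markers (Esr1, Pgr, Foxa1 and Cited1) summed to 469.9 and 480.1 CPM in luminal virgin, 33.7 and 35.2 CPM in luminal pregnant and 153.3 and 131.4 CPM in luminal lactating libraries. The sum was lowest in luminal pregnant libraries, where the caseins other than Csn1s2b had made their larger step, whereas Pgr was lower in luminal lactating (3.36 and 2.96 CPM) than in luminal pregnant libraries (6.81 and 6.11 CPM). Their part in the casein changes was not tested. Leukocyte markers summed to at most 15.5 CPM and endothelial markers to at most 208.2 CPM in any library. Fibroblast markers (Col1a1, Col1a2, Pdgfra and Dcn) summed to 365.8 and 207.1 CPM in luminal virgin and to 536.8 and 708.8 CPM in basal pregnant libraries. Most of this was Dcn, with 345.9 and 169.9 CPM in luminal virgin and 433.9 and 580.1 CPM in basal pregnant libraries. In basal pregnant against basal virgin libraries 1 of the 4 was called higher and 0 lower, against 15.6% and 14.4% of all genes. In the basal pregnant libraries adipocyte markers summed to up to 63.0 CPM, nearly all of it Lep, with Adipoq below 0.1 CPM. The part of these cells in the basal casein levels was not tested.

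Ordered by level, the groups ran alike for Csn2 and Csn1s2a, and for Csn1s1 and Csn3 up to the basal pregnant and basal lactating groups, while Csn1s2b had an order of its own. Luminal lactating stood first and basal virgin last for all 5, each differing from its neighbour. For Csn1s1 and Csn3 luminal pregnant and luminal virgin came next and the later basal groups after them, with luminal virgin above basal pregnant by 0.72 (SE 0.28, edgeR adjusted p = 0.037) for Csn1s1, a pair in which 65.4% of all genes were called. Basal pregnant and basal lactating libraries overlapped for both genes and were not called different. For Csn1s2a the later basal groups, which overlapped, stood above luminal virgin, which was lower by 1.32 (SE 0.26, edgeR adjusted p = 0.00057) than basal lactating, a pair in which 69.0% of all genes were called. For Csn2 luminal virgin was lower by 0.80 (SE 0.33, edgeR adjusted p = 0.046) than basal pregnant and was not called different from basal lactating (-0.51, SE 0.32, edgeR adjusted p = 0.178). For Csn1s2b basal lactating stood second, above luminal pregnant, which was lower by 1.70 (SE 0.21, edgeR adjusted p = 1.07e-05, where 73.6% of all genes were called), and all neighbours differed.

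Across the 12 libraries the log2 CPM of the 4 abundant caseins correlated with each other at Pearson r from 0.935 to 0.998, and Csn1s2b with them at 0.819 to 0.83. The libraries share 6 group means, so these values describe the groups. Among 9110 genes with a mean of at least 10 CPM, and with the caseins themselves left out, the 3 most alike were Pigr, Slc25a11 and Atp6v1h for Csn1s1 (r 0.99 to 0.992), Pigr, Olah and Slc25a11 for Csn2 (0.982 to 0.998) and Pigr, Glycam1 and Wap for Csn1s2a (0.985 to 0.996). Pigr, the receptor that carries immunoglobulin A across epithelia, averaged 20.1 ± 6.8 CPM in luminal virgin, 703.8 ± 81.8 CPM in luminal pregnant and 2229 ± 66.9 CPM in luminal lactating libraries (SD, n = 2 each). Spp1 (osteopontin), Folr1 (a folate receptor) and Cel (a lipase of milk) were most like Csn3, at 0.996 to 0.999. Ano1, Cept1 and Snx19 were most like Csn1s2b, at 0.978 to 0.986. Ano1, a chloride channel, had a far smaller range than Csn1s2b, at 475.7 ± 18.7, 542.3 ± 37.5 and 1049 ± 54.9 CPM in the 3 luminal stages. Slc25a11 (means of 48.9, 66.8 and 82.9 CPM) and Atp6v1h (48.9, 78.2 and 99.9 CPM) likewise had far smaller ranges than Csn1s1 at these stages. The value of r takes no account of the size of a change.

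The neighbours of the caseins showed little RNA. Among the genes counted, 16 are protein-coding in RefSeq and lie from 300 kb before Csn1s1 to 300 kb after Csn3. Of these, 11 are not caseins, and only Sult1d1 and Odam had enough reads for a test. The others had 0 to 45 reads over all 12 libraries. Odam, an odontogenic protein gene in the interval of 101.2 kb between Csn1s2b and Csn3, had 2 and 2 reads in luminal virgin, 3 and 1 in luminal pregnant and 34 and 32 in luminal lactating libraries. It was called higher in luminal lactating than in luminal pregnant libraries at 4.67 (SE 0.58, edgeR adjusted p = 3.28e-05) and not in luminal pregnant against luminal virgin ones (0.40, SE 0.95, edgeR adjusted p = 0.76, and -0.07 by library size alone). Sult1d1, a sulfotransferase gene before the cluster, had 8 and 11, 66 and 49, and 96 and 97 reads at the 3 luminal stages. Its changes were 3.01 (SE 0.39) for pregnant minus virgin and 1.45 (SE 0.30) for lactating minus pregnant, the second of which was not called by library size alone (0.59, SE 0.31).

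The sequence around the start of Csn1s1, Csn2 and Csn1s2a was searched on both strands for the STAT5 site TTCNNNGAA, the C/EBP site TTGCNNAA and the TATA box TATAAA. The windows ran from 250 bases before to 50 after the start (RefSeq, GRCm38.p6). No window was available for Csn1s2b and Csn3, so they were not searched. The 150 bases before the start are shown for the 3 genes searched, with any STAT5 match in capitals and positions counted from 0 at the start.
Csn1s1: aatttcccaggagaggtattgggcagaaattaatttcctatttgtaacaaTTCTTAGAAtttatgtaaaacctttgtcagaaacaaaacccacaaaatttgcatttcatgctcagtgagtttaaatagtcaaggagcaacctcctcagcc
Csn2: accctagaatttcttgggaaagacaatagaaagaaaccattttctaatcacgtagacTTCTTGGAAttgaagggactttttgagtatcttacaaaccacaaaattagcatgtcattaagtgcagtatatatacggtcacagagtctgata
Csn1s2a: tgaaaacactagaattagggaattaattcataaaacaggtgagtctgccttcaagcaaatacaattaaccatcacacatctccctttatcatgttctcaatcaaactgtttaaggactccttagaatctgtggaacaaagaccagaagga
These lie at chr5:87666058-87666207 and, on the minus strand, chr5:87699426-87699575, and at chr5:87774300-87774449. The STAT5 letters occurred once in each of the 3 windows, at -100 to -92 in Csn1s1, at -93 to -85 in Csn2 and at 20 to 28, after the start, in Csn1s2a. The last is shown with 10 bases on each side, from chr5:87774460-87774488.
Csn1s2a site: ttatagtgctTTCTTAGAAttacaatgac
Of all 32851 windows, 8.30% held the STAT5 letters, 10.8% the C/EBP letters and 13.6% the TATA letters. The C/EBP and TATA letters were in none of the 3 casein windows. Only these exact letters were searched, and other forms, such as the tatatata in the Csn2 stretch above, were not.

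Other milk proteins moved with the caseins in luminal cells. Of the 15 on the list, 13 were called higher and 0 lower in luminal pregnant against luminal virgin libraries (median 2.99, against -0.04 over all genes), and 13 were called higher and 1 lower in luminal lactating against luminal pregnant ones (median 2.31, against 0.00, or 1.47 by library size alone). In these comparisons 21.8% and 23.7% of all genes were called higher, and 24.1% and 24.6% lower. Glycam1, a mucin-like whey protein, averaged 53.8 ± 1.7, 17460 ± 5188 and 118500 ± 7735 CPM in luminal virgin, pregnant and lactating libraries (SD, n = 2 each). Wap averaged 73.9 ± 2.3, 7155 ± 3817 and 93930 ± 4370 CPM. Its second step, 3.72 (SE 0.33, edgeR adjusted p = 2.09e-06), stood between those of Csn3 and Csn1s2b. Spp1 rose by 2.87 (SE 0.21) and 2.31 (SE 0.20). Mfge8, a protein of the milk fat globule, did not pass in pregnancy (0.15, SE 0.20, and -0.36 by library size alone) and rose by 1.84 (SE 0.21) in lactation. In basal cells 10 of the 15 were called higher and 0 lower in pregnant against virgin libraries (median 2.01, against 0.00 over all genes), and 3 higher and 3 lower in lactating against pregnant ones (median -0.03, against 0.01). Of all genes 15.6% and 15.7% were called higher there, and 14.4% and 17.4% lower. Wap was among those called higher in basal lactating libraries, at 603.3 and 587.3 CPM, against 153.8 and 209.1 CPM in basal pregnant libraries (1.71, SE 0.30, edgeR adjusted p = 0.00125).

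The known regulators of casein transcription, a list that also holds inhibitors such as Socs3, were called in both directions, as were genes in general. Of 16, 5 were called higher and 5 lower in luminal pregnant against luminal virgin libraries (median 0.06), where 21.8% of all genes were called higher and 24.1% lower. In luminal lactating against luminal pregnant ones 8 were called higher and 5 lower (median 0.50), where the shares over all genes were 23.7% and 24.6%. By library size alone these counts were 2 higher and 8 lower, then 2 higher and 7 lower. Elf5, a transcription factor of alveolar luminal cells, averaged 135.4 ± 6.8, 732.7 ± 36.3 and 1167 ± 124.3 CPM in luminal virgin, pregnant and lactating libraries (SD, n = 2 each). Its first change was 2.44 (SE 0.18, edgeR adjusted p = 4.15e-07); the second was 0.67 (SE 0.17, edgeR adjusted p = 0.00571) and turned to -0.18 by library size alone. Elf5 averaged 3.08 ± 0.67, 21.4 ± 6.4 and 9.85 ± 0.18 CPM in basal libraries at these stages. In basal cells 3 regulators were called higher and 4 lower in pregnant against virgin libraries (median -0.19), where 15.6% and 14.4% of all genes were. In lactating against pregnant ones 3 were called higher and 6 lower (median -0.17), where 15.7% and 17.4% of all genes were.

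Prlr, the prolactin receptor, ran against the caseins at the first step. It had 1126 and 1024 CPM in luminal virgin, 98.5 and 110.5 CPM in luminal pregnant and 293.3 and 304.8 CPM in luminal lactating libraries. The changes were -3.36 (SE 0.19, edgeR adjusted p = 4.58e-08) and 1.52 (SE 0.18, edgeR adjusted p = 1.78e-05), the second being 0.67 by library size alone. Stat5a averaged 108.0 ± 0.99, 177.3 ± 14.6 and 292.0 ± 67.7 CPM and Stat5b 61.5 ± 2.6, 74.5 ± 0.67 and 142.7 ± 25.1 CPM at the 3 luminal stages. Stat5a changed by 0.72 (SE 0.14) at each step and Stat5b by 0.94 (SE 0.13) at the second, but by library size alone no step of either was called and the second step of Stat5a was -0.14. The changes of Cebpb, Nfib and Socs3, a transcription factor pair and an inhibitor of cytokine signalling, were 0.43 (SE 0.14), 0.04 (SE 0.12) and -0.999 (SE 0.24) at the first step. By library size alone those of Cebpb and Nfib were -0.07 and -0.47. At the second step they were -0.17 (SE 0.14), -0.59 (SE 0.12) and 1.30 (SE 0.24) in the same order, and by library size alone that of Socs3 was not called (0.45, SE 0.23) and that of Cebpb was called lower (-1.03, SE 0.14).

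Of the genes that serve the casein micelle by phosphorylation or by supply of calcium and phosphate, most were called higher in luminal cells at each step by TMM. On a list of 9, 8 genes were called higher and 1 was called lower in luminal pregnant against luminal virgin libraries (median 2.23, against -0.04 over all genes), and 6 higher and 1 lower in luminal lactating against luminal pregnant ones (median 0.99, against 0.00). Over all genes 21.8% were called higher and 24.1% lower at the first step, and 23.7% and 24.6% at the second. The list's counts by library size alone were 6 and 1 (median 1.72), then 4 and 2 (median 0.14). Slc34a2, a sodium and phosphate cotransporter, had 9.61 and 12.3 CPM in luminal virgin, 82.6 and 75.9 CPM in luminal pregnant and 1293 and 1588 CPM in luminal lactating libraries. Its steps were 2.86 (SE 0.19) and 4.18 (SE 0.20), so that it resembled Csn1s2b in having the larger part in lactation. Atp2c2, a calcium and manganese pump of the secretory pathway, averaged 38.6 ± 9.9, 181.0 ± 28.3 and 826.5 ± 159.0 CPM at the 3 luminal stages (SD, n = 2 each). Its relative Atp2c1 rose by 0.73 (SE 0.16) and 0.93 (SE 0.16), though neither step was called by library size alone. Nucb1, a calcium-binding protein of the Golgi, fell by 0.69 (SE 0.11) and then by 0.50 (SE 0.11), or by 1.19 and 1.35 by library size alone. In basal cells 1 of the 9 was called higher and 1 lower in pregnant against virgin libraries (median -0.05, against 0.00 over all genes), and 3 higher and 1 lower in lactating against pregnant ones (median 0.30, against 0.01). Of all genes 15.6% were called higher and 14.4% lower at the first basal step, and 15.7% and 17.4% at the second.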

How the data were processed

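The authors deposited raw read counts per Entrez gene, with a length per gene that was used for levels per kb, and the deposited files of single libraries held the same counts as the table (0 differences in 12 libraries). The submitters' processing notes list CASAVA 1.8.2, featureCounts, Subread 1.4.4 and, as builds, mm10 and GRCm38. For the strand setting and for reads with several positions, the rule was not given in the sources used here. Symbols for 25275 identifiers and coordinates came from RefSeq (GRCm38.p6).

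Counts were filtered with filterByExpr (minimum count 10), which left 15969 genes, scaled by TMM and tested in R 4.3.3 with edgeR 4.0.16 (quasi-likelihood F-test, 1 fit of 6 group means, Benjamini-Hochberg adjustment, threshold 0.05). The 6 groups share 1 estimate of the spread. Each SE was obtained from the F statistic, as the size of the log2 change over the root of F. The script was tested on simulated data. Alternatives were library size alone, RLE factors, TMM without caseins, no filter, DESeq2 1.42.0, a replicate block, each cell type alone and each library left out. The members, lists and tests were chosen with earlier results of these data known. Of the other lists the 4 genes with the highest mean CPM are named, plus Stat5a, Stat5b, Prlr and Elf5; likeness is Pearson's r of log2 CPM (prior count 2).

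Each group has libraries labelled 1 and 2. Over 9197 genes, luminal and basal libraries of the same number deviated together from their group means (r 0.251, 0.325 and 0.156 for virgin, pregnant and lactating mice), while r lay between -0.25 and 0.136 for pairs of groups of different stage. Between stages the numbering is arbitrary, so only the size of r has a meaning there. It reached 0.25, close to the value of virgin mice and above that of lactating mice. These correlations therefore cannot settle whether a number marks a mouse sorted into both cell types, and no label says so. The replicate block assumed that it does.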

Additional observations from a re-analysis of the deposited data

Results flagged for a closer look

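The change of every casein from late pregnancy to lactation differed between luminal and basal cells, by a test of that difference. Luminal minus basal, in log2 units, was 2.22 (edgeR adjusted p = 0.000933) for Csn1s1, 2.26 (0.00219) for Csn2, 2.20 (0.000539) for Csn1s2a, 2.47 (0.000631) for Csn1s2b and 2.05 (0.000175) for Csn3. The change over the whole course from virgin to lactation also differed, by 1.71 (edgeR adjusted p = 0.00334), 1.76 (0.0077), 1.52 (0.0049), 2.72 (0.0187) and 1.78 (0.000261) in the same order of genes. By library size alone the first 4 of these 5 were not called (0.56, 0.61, 0.37 and 1.57), and that of Csn1s2b was not called without basal virgin replicate 2 (2.28, edgeR adjusted p = 0.205). Cell type and sequencing lane cannot be told apart in these values.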

How the results depend on the processing

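Of 1110 casein log2 changes recomputed under the alternatives, over 60 tests, 1095 kept their direction and their side of the threshold. Scaling by library size alone shifted the median gene by -0.04 to -1.36 in the stage comparisons, by 0.16, -0.19 and -0.99 in luminal minus basal at the 3 stages and by -0.34, -0.79 and -1.14 in the differences of changes. The other scalings shifted it by at most 0.08. With library size alone 1 casein was called in the pregnancy change, luminal minus basal (Csn1s2a, -1.05, edgeR adjusted p = 0.0249), and 1 rather than 5 in the whole change, where Csn1s1 was 0.56, Csn2 0.61, Csn1s2a 0.37 and Csn1s2b 1.57; the Csn1s2b pregnancy change, luminal minus basal, turned to -0.11. With 1 library left out, basal lactating minus basal pregnant ranged from -0.39 to 0.27 for Csn1s1, from -0.57 to 0.048 for Csn2 and from -0.038 to 0.51 for Csn3, and the pregnancy change, luminal minus basal, from -0.19 to 0.63 for Csn1s2b and from -0.52 to 0.028 for Csn3; the cause was not tested. The Csn1s2b whole change, luminal minus basal, was not called without basal virgin replicate 2 (2.28, edgeR adjusted p = 0.205). As a share of TPM, which divides reads by gene length, the caseins made up 0.919%, 22.3% and 38.9% in luminal and 0.0178%, 0.868% and 0.762% in basal libraries of the 3 stages. The replicate block, which pairs luminal and basal libraries of the same stage and number, changed no casein call. Under it 5 caseins were called in the lactation change and 0 in the pregnancy change, luminal minus basal. Over all genes, basal pregnant minus virgin called 4794 and 3009 without basal pregnant replicate 2, basal lactating minus pregnant called 5287, 2735 without basal pregnant replicate 1 and 2806 without basal lactating replicate 2, and the lactation change, luminal minus basal, called 5787 and 8933 by library size alone. Of the genes called, those higher by library size alone and by TMM made up 32.1% and 52% in basal pregnant minus virgin, 31.9% and 50% in basal lactating minus virgin, 19.9% and 47.5% in luminal minus basal at lactation, and 17.9% and 45.7%, 11.3% and 50.4%, and 9.82% and 46.7% in the pregnancy, lactation and whole changes, luminal minus basal. With 2 libraries a group, and 3 and 5 Csn1s2b reads in basal virgin libraries, small changes of that gene were not detectable.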
